A study of Mus musculus with 2 samples.

Results

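The MYC and MAX network is a set of basic helix-loop-helix leucine zipper transcription factors, and 10 of its genes were compared between NRF3-expressing and GFP-expressing B16F10 cells. The 10 genes, Myc, Mycn, Mycl, Max, Mxd1, Mxd3, Mxd4, Mxi1, Mnt and Mlx, were taken by name from the 19505 genes named on the array, and each had 1 probe set. The network was chosen by a measured value, the low Myc value in the NRF3 cells, so the difference of Myc is a description and not a finding. The other 9 genes were included for their place in the network. B16F10 is a mouse melanoma line. Cells received an NRF3 or a GFP plasmid together with a puromycin resistance vector, were selected with puromycin, and were then kept in forskolin, an activator of adenylate cyclase, for 5 days, and this treatment was shared by both groups. The labels name neither the promoter nor clones nor separate cultures. Each group had 1 array, so no value below has an error, an interval or a p-value, and each difference compares 2 RNA samples.

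MYC, MYCN and MYCL each bind DNA as a dimer with MAX, at the E-box CACGTG and related sites, and activate genes of ribosome production, nucleotide synthesis and the cell cycle. The MXD proteins and MNT also pair with MAX, bind the same sites and recruit SIN3 and histone deacetylases to repress them. MLX is a MAX-like partner that pairs with MondoA (Mlxip) and ChREBP (Mlxipl), which sense glucose-derived metabolites, and also with MNT and some MXD proteins. MYC is an unstable protein made from an unstable mRNA, and it is often overexpressed in melanoma.

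Values are log2 expression on the robust multi-array average (RMA) scale, and differences are NRF3 minus GFP. Detection required that at least 1 of a gene's values reach 5.89, the median over the named probe sets on both arrays, and 10162 genes passed. The floor was set by rank, without reference to background signal. The 5222 control rows with neg in their names had upper quartiles of 7.85 on the NRF3 array and 7.52 on the GFP array, so a value under these may reflect background. Their medians, 6.37 on the NRF3 array and 6.12 on the GFP array, lay above the floor. A gene counted as detected may therefore lie at background. Among the detected genes, 2396 (23.6%) were lower by 1.5-fold or more in the NRF3 cells, and 1728 (17.0%) were higher by 1.5-fold or more. At 2-fold the shares were 11.0% lower and 6.75% higher. The excess of lower genes depended on the scaling, since after quantile normalization 2018 genes were lower and 2124 higher at 1.5-fold. At 2-fold the excess shrank after quantile normalization but did not turn, with 910 genes lower and 876 higher. Nfe2l3, the gene of NRF3, lay at 10.15 on the NRF3 array and 6.04 on the GFP array. All 7 melanocyte markers were detected, and the 17 measured markers of leukocytes, fibroblasts, endothelium and epithelium all lay under the floor.

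Promoter sequence was looked at first because the network reads the E-box and some of its own genes carry one. The RefSeq promoter table (GRCm38.p6), with 250 bases before and 50 after each gene start, held 9 of the 10 genes, and Myc was not matched. The letters CACGTG, which read the same on both strands, stood in the window of Max, Mlx, Mxd4 and Mnt, 4 of the 9 genes. Of all 32851 promoter windows 7.15% held them, of all 27025 genes with a window 8.09%, and of the 8387 detected genes with a window 11.8%. The 4 stretches below are all the CACGTG matches in the windows of the members. They show CACGTG in capitals with up to 30 bases on each side, 5′ to 3′ on the gene's strand. They come from chr12:76962219-76962281 (minus strand) for Max, chr11:101087220-101087285 (plus strand) for Mlx, chr5:34187894-34187959 (minus strand) for Mxd4 and chr11:74830771-74830836 (plus strand) for Mnt.
Max: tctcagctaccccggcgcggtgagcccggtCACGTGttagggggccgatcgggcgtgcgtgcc
Mlx: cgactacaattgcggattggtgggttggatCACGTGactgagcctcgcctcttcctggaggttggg
Mxd4: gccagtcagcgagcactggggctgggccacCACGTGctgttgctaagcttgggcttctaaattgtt
Mnt: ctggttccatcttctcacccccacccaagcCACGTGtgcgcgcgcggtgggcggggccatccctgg

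Counted from the annotated start, with the last base before it as -1, the E-box began at -3 in Max, -40 in Mlx, -123 in Mnt and -219 in Mxd4. The 4 genes with these letters differed by 0.57 to 1.17 between NRF3 and GFP cells. The 3 detected members with a window and no CACGTG, Mxd1, Mxd3 and Mxi1, differed by -0.19 to 0.21. This split sets 4 genes beside 3. Both values of Mnt and of Mxd3 lay under the upper quartiles of the control rows. Over all detected genes this split was small, with a median difference of -0.03 for the 989 genes with CACGTG and -0.09 for the 7398 without. Of these genes 21.2% with the letters and 16.2% without were at least 1.5-fold higher. A 9-base pattern of the antioxidant response element, the site of cap'n'collar factors such as NRF3 with small MAF proteins, was searched as TGACNNNGC on both strands. It was found in 5 of the 9 members, Max, Mlx, Mxd1, Mxd3 and Mxi1, the last in 1 of its 3 windows. These 5 genes differed by -0.19 to 1.17. Mxd4 and Mnt, the detected members with a window but without the pattern, differed by 0.57 and 0.58. Of all windows 12.4% held the pattern, of all genes with a window 14.0%, and of the 8387 detected genes with a window 16.5%. The median difference of detected genes was -0.03 with the pattern and -0.09 without. In Max and in Mlx 1 match overlapped the E-box. These matches are letters in a window and were not tested as sites.

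Among the MYC activators taken here, Myc, Mycn and Mycl, only Myc was detected. Myc, which encodes the broadly acting family member, had a log2 value of 8.04 in NRF3 cells, against 11.55 in GFP cells. The value in NRF3 cells was the dim one, just above the upper quartile of 7.85 of the control rows, so background may enter the size of the difference. The difference was -3.50, or 11.3-fold lower in NRF3 cells, and 32 of the 10162 detected genes had a lower one. Mycn, the form known from neural crest and neuroblastoma, read 3.25 in NRF3 cells and 2.75 in GFP cells. Mycl, first known from small cell lung cancer, read 5.38 in NRF3 cells and 5.00 in GFP cells. Both lay under the floor of 5.89 on each array, so their differences of 0.51 and 0.38 cannot be told from background.

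**Figure D1:**
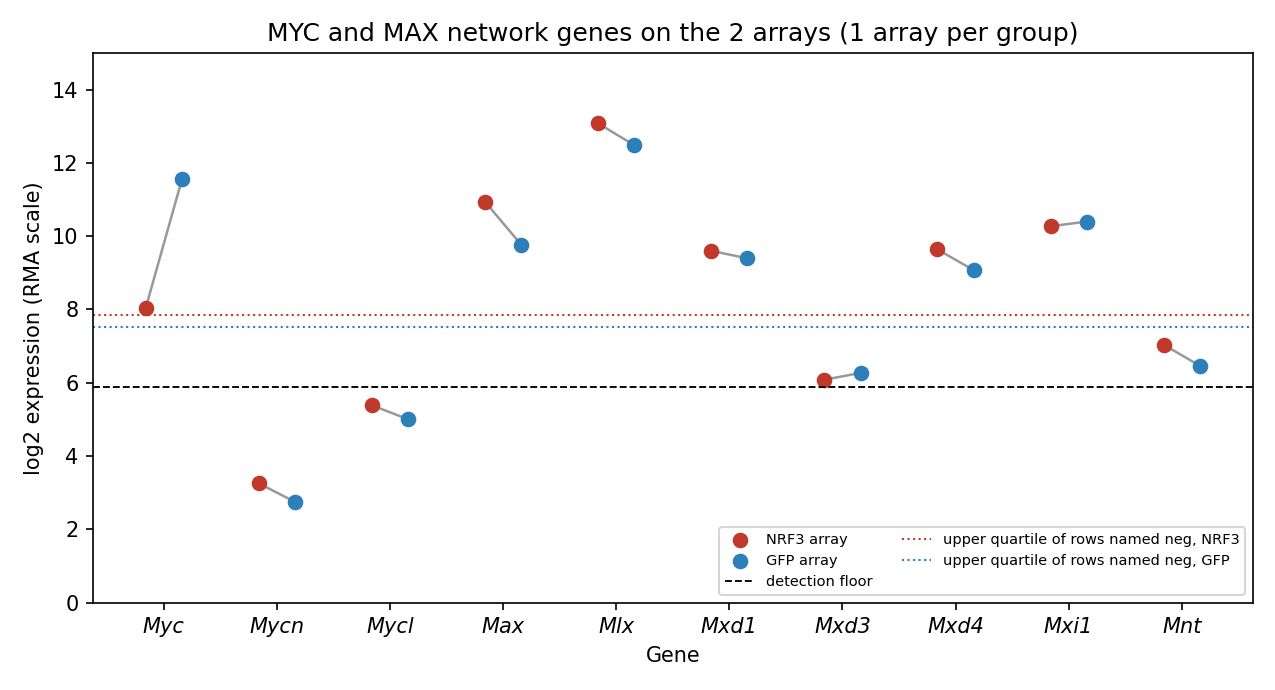
Log2 expression of the 10 network genes on the NRF3 array (red, left of each pair) and the GFP array (blue, right), joined by a line, with the detection floor of 5.89 (dashed) and the upper quartiles of the control rows named neg (dotted, 7.85 on the NRF3 array and 7.52 on the GFP array). Each point is 1 array, and levels of different genes are not comparable. Myc lies at 8.04 on the NRF3 array and 11.55 on the GFP array, Max, Mlx, Mxd4 and Mnt lie above their GFP values there, and Mycn and Mycl lie under the floor on both arrays.

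Of the dimer partners, Max and Mlx were both higher in the NRF3 cells. Max, the obligate partner of MYC and of the MXD repressors, had 10.94 in NRF3 cells and 9.77 in GFP cells. The difference was 1.17, or 2.25-fold, and 95.5% of detected genes had a lower one. Mlx had 13.08 in NRF3 cells and 12.48 in GFP cells, a difference of 0.60 or 1.51-fold, just past the 1.5-fold size rule. Both genes lay above the upper quartiles of the control rows on each array.

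The repressors of the network showed differences of both signs and none was 1.5-fold lower. Mxd4, an MXD gene known from differentiating cells, had 9.64 in NRF3 cells and 9.07 in GFP cells. Its difference of 0.57, or 1.48-fold, lay just inside the size rule. Mnt, the widely expressed MAX-bound repressor, had 7.04 in NRF3 cells and 6.46 in GFP cells, a difference of 0.58 or 1.49-fold, also just inside. Both Mnt values lay under the upper quartiles of the control rows, so its difference may reflect background. Mxd4 and Mnt crossed the 1.5-fold rule when the arrays were median centred, quantile normalized or corrected for a trend with level, with values of 0.64 to 0.69.

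Mxd1, the founding MXD gene, which is switched on as many cells leave the cycle, had 9.60 in NRF3 cells and 9.40 in GFP cells. Mxi1, also called MXD2, had 10.27 in NRF3 cells and 10.40 in GFP cells. Mxd3, the MXD gene expressed in proliferating cells, had 6.08 in NRF3 cells and 6.27 in GFP cells. Both lay close to the floor and under the upper quartile of the control rows, and the NRF3 value lay under their median of 6.37. The differences of Mxd1, Mxi1 and Mxd3 were 0.21, -0.13 and -0.19, or 1.09-fold to 1.15-fold in size. Of the 8 detected members 1 was at least 1.5-fold lower, Myc, 2 were at least 1.5-fold higher, Max and Mlx, and 5 lay within 1.5-fold. The background shares were 23.6% lower and 17.0% higher. The 7 detected members other than Myc had a median difference of 0.57, and 5 of them were above 0. Over all detected genes the median was -0.07, and 54.2% lay below 0. Among the 7 members, Mnt and Mxd3 lay under the upper quartiles of the control rows on both arrays.

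**Figure D2:**
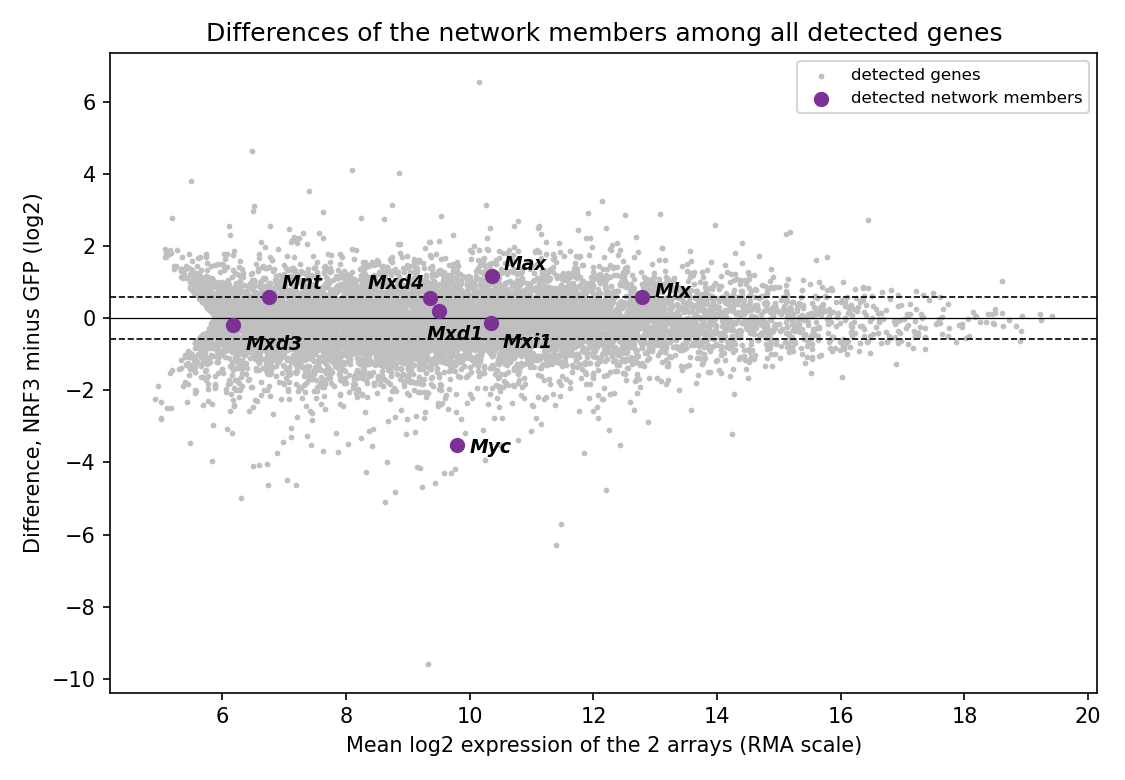
Difference in log2 expression, NRF3 minus GFP, against the mean of the 2 arrays for the 10162 detected genes (grey) and the 8 detected network members (purple, named), with dashed lines at 1.5-fold. Myc at -3.50 lies far under the body of genes of its level, Max at 1.17 lies near its upper edge, and the other members lie within it.

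The position of the genes was examined because differences on these arrays ran along some chromosomes. Detected genes had a median difference of -0.51 on chromosome 1 and 0.56 on chromosome 8, and no network gene lies on either. Myc lies on chromosome 15, whose 394 detected genes had a median of -0.28. The 20 nearest detected genes, 10 on each side in the RefSeq gene order, had a median of -0.34, with 7 of the 20 at least 1.5-fold lower and 2 at least 1.5-fold higher, beside 23.6% and 17.0% of all detected genes. Genes next to Myc went both ways. Of the 3 nearest measured genes on one side, Lratd2 was detected, at 9.17 in NRF3 cells and 8.11 in GFP cells, and A1bg and 4933412E24Rik lay under the floor. Of the 3 on the other side, Gsdmc, a gene of a pore-forming gasdermin, was detected, at 8.27 in NRF3 cells and 14.54 in GFP cells, and Macroh2a3 and Gsdmc2 lay under the floor. Ndrg1, a growth-arrest gene that MYC and MYCN are known to repress, was the ninth detected gene on the side of Gsdmc, at 8.27 in NRF3 cells and 12.21 in GFP cells. Whether the low values of Myc, Gsdmc and Ndrg1 have a common basis was not tested.

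**Figure D3:**
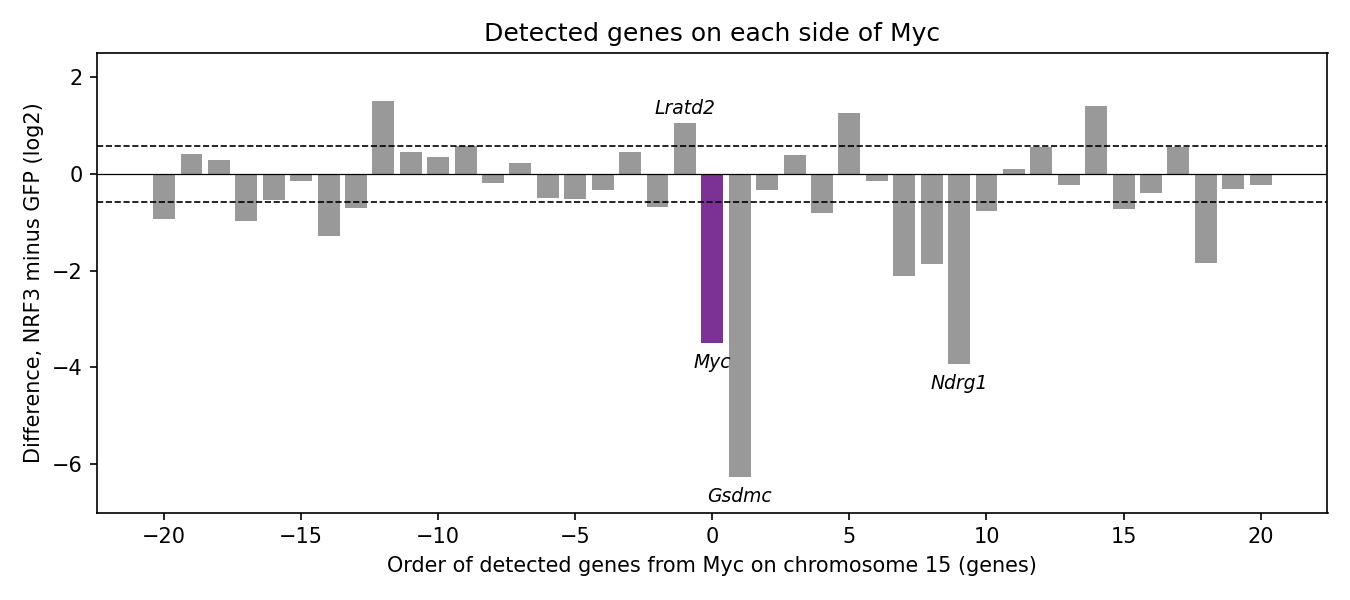
Difference in log2 expression, NRF3 minus GFP, of Myc (purple, order 0) and the 20 nearest detected genes on each side of it on chromosome 15 (grey bars), with dashed lines at 1.5-fold. Myc at -3.50 and Gsdmc at -6.27 stand side by side, Ndrg1 at -3.93 stands apart from them, and Lratd2 on the other side of Myc is higher by 1.06.

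Around the other members the median of the 20 nearest detected genes lay between -0.49 and 0.19. Max and Mlx were higher among neighbours whose medians were 0.07 and -0.49, and Mxd4 among neighbours with 0.19. With 5 genes on each side the median around Max was -0.66. By difference alone, the 4 genes nearest to Myc that were above the floor on both arrays were Hspg2 at -3.49, Crip2 at -3.52, Pla2g2e at -3.53 and Gamt at -3.54. The likeness is that of 1 difference between 2 arrays, and none of the 4 lies on chromosome 15.

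Known targets that MYC activates were then taken by class. Pooled over 5 classes, 107 distinct targets were detected, of which 52 were at least 1.5-fold lower in the NRF3 cells and 4 as much higher. This was 48.6% lower and 3.74% higher, beside 23.6% and 17.0% of all detected genes, and the median difference was -0.54 beside -0.07. Lower proliferation genes were already known from these arrays, and some targets passed the floor only through their GFP value, so this count is a description and no independent support. Leaving out the cell cycle class may not remove every proliferation gene, so the next count is a description too. Without the cell cycle class, and with both values above the upper quartiles of the control rows, 26 of 72 targets were lower (36.1%) and 3 were higher (4.17%), with a median of -0.35. Under the same limit on control rows, 21.1% of 6930 genes were lower and 16.6% higher. Among detected ribosome biogenesis targets with a promoter window, the median was -0.52 with CACGTG and -0.73 without. For nucleotide synthesis these medians were -0.18 and -0.69, and for the cell cycle -0.21 and -1.08. For translation factors they were -0.22 and 0.08, and for metabolism -0.13 and -0.11. The classes held 2 to 8 targets with these letters.

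Ribosome biogenesis genes were mostly lower in the NRF3 cells, with 21 of 36 detected lower by 1.5-fold or more, 1 as much higher and a median of -0.68. The shares were 58.3% lower and 2.78% higher, beside 23.6% and 17.0% of all detected genes. Bop1, which acts in maturation of the large ribosomal subunit, had 8.15 in NRF3 cells and 9.82 in GFP cells, a difference of -1.67. Bysl, which acts on the small subunit, had 9.64 in NRF3 cells and 11.19 in GFP cells, a difference of -1.54. Ncl, the nucleolar protein nucleolin and a direct MYC target, differed by -1.30, Nop58 of the box C/D snoRNP by -1.46 and Polr1b of RNA polymerase I by -1.37. Npm1, an abundant nucleolar chaperone, differed by 0.22. Ncl, Nop58, Polr1b and Npm1 were named after their values were seen. Ppan, another factor of the large subunit, differed by 0.34. Nip7, also of large subunit assembly, went the other way, with 12.41 in NRF3 cells and 11.01 in GFP cells, and it lies on chromosome 8. Of the 29 genes above the upper quartile of the control rows on both arrays, 15 were lower and 1 higher. Under the same limit 21.1% of 6930 genes were lower and 16.6% higher.

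Nucleotide and polyamine synthesis genes had 13 of 25 detected members at least 1.5-fold lower in the NRF3 cells, 1 as much higher and a median of -0.67. The shares were 52.0% lower and 4.0% higher, beside 23.6% and 17.0% of all detected genes. Mthfd1, a folate enzyme of purine synthesis, had 8.32 in NRF3 cells and 10.15 in GFP cells. Cad, the enzyme that starts pyrimidine synthesis and a long-used MYC target, had 7.63 in NRF3 cells and 9.46 in GFP cells, and its NRF3 value lay under the upper quartile of the control rows. Both differed by -1.83. Odc1, the rate-limiting enzyme of polyamine synthesis, differed by -1.14 and Srm, spermidine synthase, by -1.05. Odc1 and Srm were named after their values were seen. Gmps differed by 0.18. Dhodh, on chromosome 8, was the 1 higher member, at 8.05 in NRF3 cells and 7.38 in GFP cells. Over the 20 members above the upper quartile of the control rows on both arrays the median was -0.37, with 9 lower. Under the same limit 21.1% of 6930 genes were lower.

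Cell cycle targets had 16 of 22 detected members at least 1.5-fold lower in the NRF3 cells, 0 as much higher and a median of -0.79. The share lower was 72.7%, beside 23.6% lower and 17.0% higher over all detected genes. E2f2, an E2F factor of the G1 to S transition, had 7.25 in NRF3 cells and 10.11 in GFP cells. Its difference was -2.86, with an NRF3 value under the upper quartile of the control rows, so background may enter this size. Ccnd3, encoding cyclin D3, had 12.91 in NRF3 cells and 14.47 in GFP cells. Cks1b differed by 0.42 and Cul1 by 0.57. This list holds proliferation genes already known to be lower on these arrays.

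Translation factors had 2 of 10 detected members lower (a share near the 23.6% of all detected genes), 1 higher and a median of -0.17. Eif1a differed by -0.91 and Eif2b3 by -0.79, while Eif4ebp1, an inhibitor of the cap-binding factor eIF4E that lies on chromosome 8, was higher by 0.98 and Eef1e1 differed by 0.24. Glucose, glutamine and amino acid metabolism genes lay close to the middle, with 0 of 14 lower, 1 higher and a median of -0.08. Over all detected genes 23.6% were lower and 17.0% higher. Slc3a2, the heavy chain of amino acid exchangers, had 17.58 in NRF3 cells and 16.85 in GFP cells. Ldha, the lactate dehydrogenase and a classical MYC target, had 18.62 in NRF3 cells and 18.37 in GFP cells. The lowest members were Pfkm at -0.51 and Pdk1 at -0.48.

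**Figure D4:**
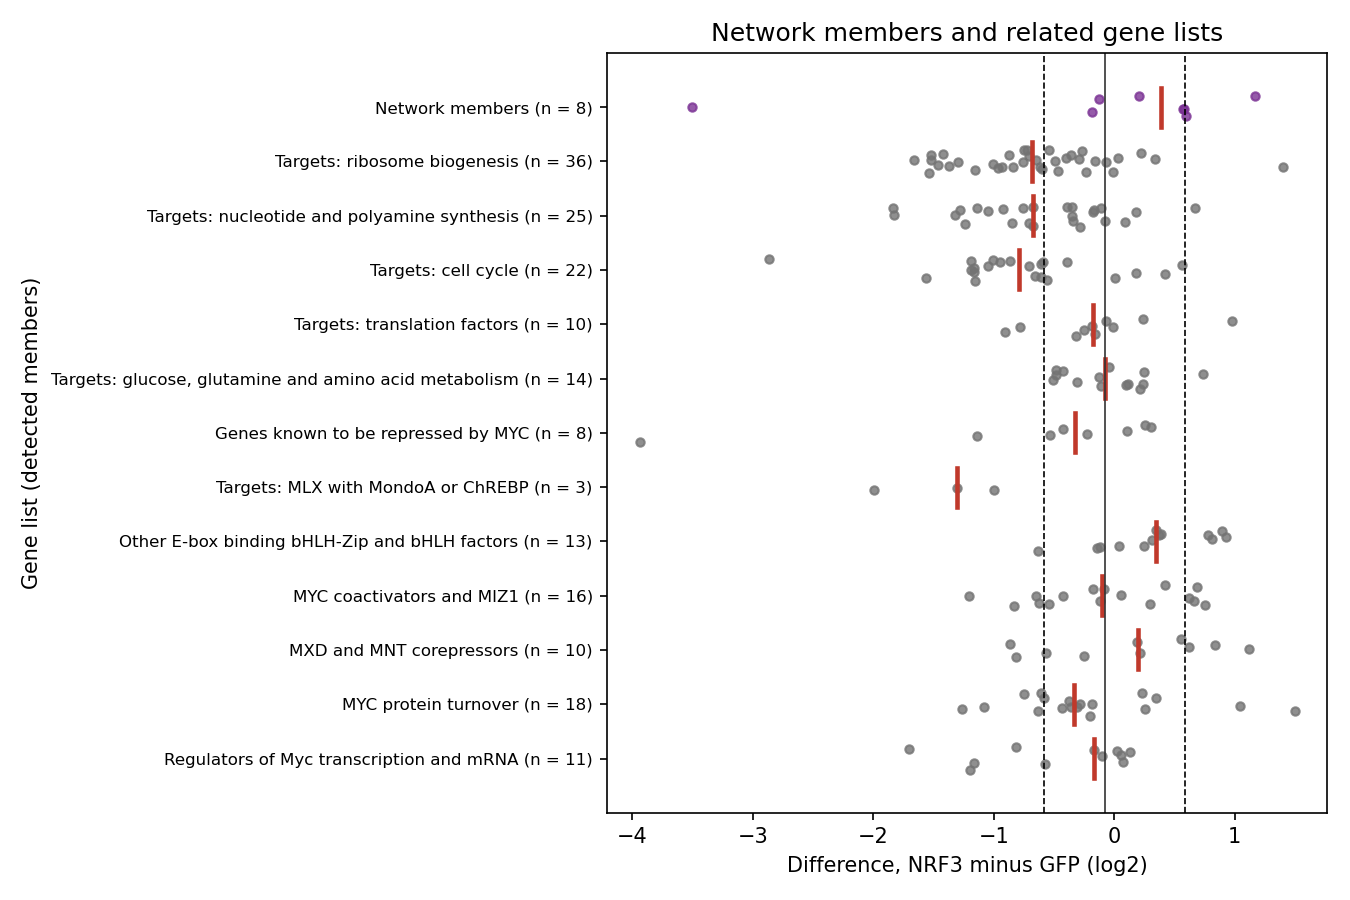
Differences in log2 expression, NRF3 minus GFP, of the detected members of the network (purple, top) and of 12 related gene lists (grey), 1 point per gene with a small vertical scatter for visibility. Red bars are medians, dashed lines mark 1.5-fold and the thin line is the median of all detected genes, -0.07. The medians of ribosome biogenesis, nucleotide synthesis and cell cycle targets lie at -0.68, -0.67 and -0.79, and those of translation and metabolism targets at -0.17 and -0.08.

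Among genes known to be repressed by MYC, none of the detected ones was 1.5-fold higher in the NRF3 cells. Over all detected genes 17.0% were higher by that much, so with 8 genes the absence says little about the list. Of 17 measured, 8 were detected and 2 of these were lower by 1.5-fold or more (a share near the 23.6% of all detected genes), namely Ndrg1 at -3.93 and Cdkn1a, the gene of the cell cycle inhibitor p21, with 13.78 in NRF3 cells and 14.92 in GFP cells. Cdkn1b, the gene of p27, differed by 0.30 and Gadd45a by 0.26. The median of the 8 was -0.33, but without a floor it was 0.04 over all 17, and a stricter floor, the 75th percentile, gave 0.11.

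On the MLX arm, a partner gene and the detected target genes were lower in the NRF3 cells, while Mlx was higher. Mlxip, which encodes MondoA, had 10.21 in NRF3 cells and 10.84 in GFP cells, a difference of -0.63. It lay within 1.5-fold after median centring, quantile normalization or the trend correction. Of 5 genes known to respond to MLX with MondoA or ChREBP, 3 were detected and all 3 were at least 1.5-fold lower in the NRF3 cells. Over all detected genes 23.6% were lower by that much and 17.0% higher. Txnip, the thioredoxin-interacting inhibitor of glucose uptake and the best known MondoA target, had 12.39 in NRF3 cells and 14.38 in GFP cells, a difference of -1.99. Klf10 had 8.55 in NRF3 cells and 9.86 in GFP cells. Arrdc4, an arrestin-family relative of Txnip, had 7.25 in NRF3 cells and 8.25 in GFP cells, and the NRF3 value lay under the upper quartile of the control rows.

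Other factors that bind E-box DNA had 4 of 13 detected members higher by 1.5-fold or more in the NRF3 cells, 1 as much lower and a median of 0.34. The shares were 30.8% higher and 7.69% lower, beside 17.0% and 23.6% of all detected genes. Mitf, the regulator of the melanocyte lineage, had 15.19 in NRF3 cells and 14.26 in GFP cells. Tfeb, a regulator of lysosome genes, had 7.79 in NRF3 cells and 6.90 in GFP cells, both close to or under the upper quartiles of the control rows. Mlxip was the 1 lower member as deposited, and it lay within 1.5-fold under each of the 3 other scalings. Arntl, a circadian clock factor, was next, at -0.15.

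Coactivators of MYC and the MYC-bound factor MIZ1 went both ways, with 4 of 16 detected lower, 4 higher and a median of -0.10. The share lower lay near that of all detected genes, 23.6%, and 17.0% of all detected genes were higher. After median centring, quantile normalization or the trend correction 2 of them were lower. Kat2a, the acetyltransferase GCN5, had 11.11 in NRF3 cells and 12.31 in GFP cells, and Ep400, a chromatin remodeller, had 10.66 in NRF3 cells and 9.91 in GFP cells. Mycbp2 differed by -0.83 and Kat2b by 0.69, each with a value among the control rows. Corepressors of the MXD proteins and MNT had 2 of 10 lower, 3 higher and a median of 0.20, beside 23.6% lower and 17.0% higher over all detected genes, so the share lower lay near that background. The histone deacetylase genes Hdac3 and Hdac1 differed by -0.86 and -0.81. Sin3b, the scaffold that MXD proteins bind, was higher by 0.84 and Ing2 by 1.12, and both lie on chromosome 8. Without chromosomes 1 and 8 the median of the corepressors was -0.25 and 1 was higher.

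Genes that set MYC protein turnover had 5 of 18 detected members at least 1.5-fold lower, 2 higher and a median of -0.33. The shares of 27.8% lower and 11.1% higher lay near the 23.6% and 17.0% of all detected genes, so the values below describe single genes and not the list. Aurka, a mitotic kinase that shields MYCN from degradation, had 10.24 in NRF3 cells and 11.51 in GFP cells. Cip2a, an inhibitor of the phosphatase that removes a stabilizing phosphate from MYC, had 7.81 in NRF3 cells, just under the upper quartile of the control rows, and 8.89 in GFP cells. Fbxw7, the ubiquitin ligase subunit that targets phosphorylated MYC, had 7.40 in NRF3 cells and 6.36 in GFP cells. Fbxo32, the F-box subunit of another ubiquitin ligase, had 6.68 in NRF3 cells and 5.18 in GFP cells. The values of both F-box genes lay under the upper quartiles of the control rows on each array, so these differences may reflect background.

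Regulators of Myc transcription and mRNA had 4 of 11 detected members at least 1.5-fold lower in the NRF3 cells, 0 higher and a median of -0.17. The share lower was 36.4%, beside 23.6% lower and 17.0% higher over all detected genes. Stat3, a cytokine-activated factor that induces Myc in several cell types, had 9.95 in NRF3 cells and 11.65 in GFP cells, a difference of -1.70. Tcf7l2, a DNA-binding partner of beta-catenin for which Myc is a known target, had 10.00 in NRF3 cells and 11.20 in GFP cells. The 2 highest members, the mRNA-binding protein genes Zfp36 and Elavl1, differed by 0.07 and 0.13, and both values of Zfp36 lay near the floor. Zfp36l1, a relative of Zfp36 and 1 of the 4 lower members, differed by -0.82. Zfp36l1 was named after its value was seen. The median of this list was 0.01 after quantile normalization and -0.57 without chromosomes 1 and 8.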

How the data were processed

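The deposited file held log2 expression values of 28846 probe sets on 2 Affymetrix arrays, made by the authors with Affymetrix Expression Console and RMA, per the submitters' processing notes. Biotin-labelled cRNA came from 100.0 ng of total RNA, per the labels' protocols. The sources used here do not give the version or build. The highest values, 19.7 on the NRF3 array and 19.8 on the GFP array, exceed 16, the log2 limit of a 16-bit reading, so folds hold on the deposited scale only. Arrays have no read depth, and having 1 array per group limits the precision.

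Probe sets were named through the platform annotation (19572 with 1 symbol), with the brightest probe set for each of 55 genes with several. The members and lists were chosen with earlier results of these data known. The lists came from general knowledge, and genes of them without a named probe set were not analysed here. Named genes were the members, the overexpressed gene, up to 2 highest and 2 lowest detected members of each list, 3 neighbours on each side of Myc and the 4 genes nearest to it in difference, apart from those said to be named later. Counts used rules of size (1.5-fold and 2-fold), and no test was possible. Alternatives were other floors, median centring, quantile normalization, a lowess trend (span 0.3) and mean probe sets. Code was tested on simulated data. Python 3.11.15, pandas 2.3.3 and statsmodels 0.14.6 were used.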

Additional observations from a re-analysis of the deposited data

How the results depend on the processing

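No paired analysis was possible because each group had 1 array and no result came from a test. Of 442 values recomputed, 384 kept their direction and their side of the size rule or stayed within 1.5 times, 45 moved further, 6 became larger than 1.5-fold and 7 changed sign. Some of the 384 could not change, so this count overstates how stable the values are. A floor, a limit on control rows or leaving out chromosomes cannot alter the difference of a single gene. Each member had 1 probe set, so averaging probe sets could not alter its difference either. Myc was -3.50 as deposited and lay between -3.43 and -3.39 after rescaling, the only change that could alter it. Median centring, the lowess trend and quantile normalization put Mxd4 at 0.64, 0.66 and 0.69 and Mnt at 0.65, 0.65 and 0.69, which made 4 members higher. Each of these scalings also left 0 other E-box factors and 2 coactivators lower and made 1 cell cycle target higher, and centring left 3 turnover genes lower. The metabolism median turned to 0.028 under the lowess trend and that of the Myc regulators to 0.0066 under quantile normalization. Quantile normalization moved the median of all detected genes by 0.10. The split of calls at 1.5-fold was 2095 lower and 2035 higher after centring, 2018 and 2124 after quantile normalization and 2125 and 1958 with the trend removed.

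With a 2-fold rule 1 of the 8 detected members was higher. Over all detected genes 11.0% were then lower and 6.75% higher. Lower genes numbered 10 of 36 for ribosome biogenesis, 7 of 25 for nucleotide synthesis and 9 of 22 for the cell cycle. They numbered 2 of 18 for turnover, 1 of 16 for coactivators and 0 each for translation factors, corepressors and other E-box factors. Higher genes numbered 1 of 10 for corepressors and 0 for nucleotide synthesis, translation factors, metabolism, coactivators and other E-box factors. With no floor 2931 genes were higher, and the MYC-repressed list had a median of 0.043 with 1 higher. With the floor at the 75th percentile, 1283 genes were lower and 951 higher at 1.5-fold, 588 and 401 at 2-fold, the median of the MYC-repressed list was 0.11, and 0 turnover and 0 nucleotide genes were higher.

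Chosen after seeing the data, a limit to genes above the upper quartile of the control rows on both arrays left 1464 lower at 1.5-fold, 612 lower and 453 higher at 2-fold, and 0 turnover and 0 nucleotide genes higher. Leaving out chromosomes 1 and 8, also chosen later, gave 0 higher genes of ribosome biogenesis, nucleotide synthesis and translation, and a corepressor median of -0.25 with 1 higher. The neighbours of Max had a median of -0.66 with 5 genes on each side, and those of Mxd3 of -0.078 with 20. Fewer genes were counted under the stricter floors, and a 2-fold rule can only lower a count. The higher genes lost without chromosomes 1 and 8, Nip7, Dhodh and Eif4ebp1, lie on chromosome 8. The corepressor genes Sap30, Sin3b and Ing2 also lie there. For the other changes the cause was not tested. A signal near the control rows limits Mnt, Mxd3, Mycn and Mycl.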
